A study of Rattus norvegicus with 9 samples.

Results

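Oxidative phosphorylation joins the electron transport chain of the inner mitochondrial membrane to the synthesis of ATP, and the heart depends on it for nearly all of its contraction. Complex I takes electrons from NADH, complex II from succinate, complex III passes them to cytochrome c, complex IV hands them to oxygen, and complex V, the ATP synthase, uses the proton gradient that complexes I, III and IV build. Most subunits are encoded in the nucleus, and a few, among them the catalytic core of complex IV, are encoded in mitochondrial DNA. Ischemia stops the chain for want of oxygen, and on reperfusion complexes I and III are known sites of reactive oxygen species.

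The genes described here are those whose symbol begins with a stem of the subunit families of complexes I to V (Nduf, Sdh, Uqcr, Cox followed by 4 to 8, and Atp5). Where a gene had several probe sets, the one with the highest mean over the 9 arrays was taken. This gave 113 of the 21013 genes that the annotation names with a single symbol, on 118 probe sets, 5 genes having 2. By the RefSeq gene table and the known composition of the complexes, 73 are subunits (34 of complex I, 4 of complex II, 8 of complex III, 13 of complex IV and 14 of complex V), 14 are assembly factors or other proteins that share the stem, and 26 are copies of subunit genes, of which RefSeq lists 14 as pseudogenes, 11 as protein-coding and 1 as a long noncoding RNA. Ndufa4, named for complex I, was counted with complex IV. Ndufa13, Ndufv3, Cox4i1, Cox6b1, Cox7a1, Cox7c and Atp5f1c had no probe set named by that symbol alone and were not analysed here.

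RNA of the cardiac left ventricle of male Wistar rats was measured on 9 arrays, 3 for each group, and the labels do not say that the 3 came from separate animals, so p-values cover only how far these arrays differ. Control rats had the chest opened and a thread placed under the left anterior descending coronary artery without blocking it, with closure 60 min later. IRI rats (ischemia-reperfusion injury) had that artery blocked for 45 min, and after it was opened the heart was left to stabilise for 15 min before closure. RpostC_IRI rats had the same 45 min of occlusion, followed by remote ischemic postconditioning, in which the left femoral artery was clamped for 30 s and released for 30 s in 3 cycles, and then the same 15 min of stabilisation. All groups shared pentobarbital anaesthesia, ventilation and thoracotomy. The labels also give a ligation of 30 min in a general account of the surgery, the rats' age is not stated, and how long after reperfusion the RNA was taken is not stated for these arrays.

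Values are the deposited log2 signals, and 3 of their properties bear on what follows. The scale ends at 19.93, and 1918 to 1948 probe sets reached 19 or more on each IRI or RpostC_IRI array against 166 to 172 on each control array. Many probe sets carry 1 identical value on several arrays: 48 of the 113 genes had the same value on at least 4 of the 6 IRI and RpostC_IRI arrays, as did 42.1% of all genes, and for 21 of the 48 that value also stood on a control array. A standard deviation of 0 therefore does not measure the precision of a group. The 4 hybridization control probe sets had a mean per array of 10.9 to 11.5 in control rats, against 10.1 to 10.8 in the other groups. Of the cardiomyocyte markers 12 of 14 were measured, none of them below background on all arrays, background being 4.93 (the 95th percentile of olfactory, vomeronasal and taste receptor probe sets), and 5 of the 113 genes were below it on all 9 arrays.

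Some promoters of these genes hold binding motifs of factors that control nuclear genes for mitochondrial proteins. Of them 4 are shown, to set genes that carry the same motif and moved in opposite directions in the deposited values side by side, chosen after their values were seen. RefSeq promoter windows (build GRCr8, from 250 bases before to 50 after the start) were found for 86 of the 113 genes, and for 64 of the 73 subunits. Both strands were searched for the NRF1 motif (shown in capitals in the first pair of sequences), CCGGAAG (GABPA), TNAAGGTCA (ESRRA) and AAGATGGCG (YY1), none of which overlapped in the stretches printed. At least 1 of them was held by 37 of the 86 windows. The GABPA motif was in 28.1% of subunit windows against 8.75% of all 33469 windows, the YY1 motif in 15.6% against 1.73%, the NRF1 motif in 4.69% against 0.852%, and the ESRRA motif in 4.69% against 1.2%. Subunits were taken by 1 window per gene, while the 33469 windows were not reduced in that way, so the 2 sets are not fully alike. The GABPA motif was in 7 of the 23 windows of subunits higher in IRI, in 3 of the 9 of those lower and in 8 of the 32 of those not called, while no window of the 9 copies that were found held any of the motifs. Atp5mk is among the 3, with its window on chromosome 1. Its lower call came from a probe set on chromosome 10 and is not shown for the gene, as described below. The 250 bases before the start are given in lower case with the motif in capitals, the first pair with the NRF1 motif and the second with the GABPA motif on the other strand. They lie at chr11:44657484-44657733 for Atp5po, chr7:135678219-135678468 for Atp5mc2, chr8:89601150-89601399 for Cox7a2 and chr1:210573699-210573948 for Ndufs8, all on the minus strand.
Atp5po: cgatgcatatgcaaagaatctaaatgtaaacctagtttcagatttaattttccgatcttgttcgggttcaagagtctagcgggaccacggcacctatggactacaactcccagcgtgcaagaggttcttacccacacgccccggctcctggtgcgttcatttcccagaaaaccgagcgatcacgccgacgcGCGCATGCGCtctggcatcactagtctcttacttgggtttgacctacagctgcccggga
Atp5mc2: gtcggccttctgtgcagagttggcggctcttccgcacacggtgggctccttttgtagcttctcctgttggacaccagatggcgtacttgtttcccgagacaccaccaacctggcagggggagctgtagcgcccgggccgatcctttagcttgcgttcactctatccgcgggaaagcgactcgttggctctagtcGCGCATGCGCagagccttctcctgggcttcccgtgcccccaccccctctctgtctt
Cox7a2: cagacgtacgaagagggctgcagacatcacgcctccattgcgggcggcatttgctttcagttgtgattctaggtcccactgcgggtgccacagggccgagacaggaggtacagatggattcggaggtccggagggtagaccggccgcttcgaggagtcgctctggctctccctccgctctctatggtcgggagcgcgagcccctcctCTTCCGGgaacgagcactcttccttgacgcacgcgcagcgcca
Ndufs8: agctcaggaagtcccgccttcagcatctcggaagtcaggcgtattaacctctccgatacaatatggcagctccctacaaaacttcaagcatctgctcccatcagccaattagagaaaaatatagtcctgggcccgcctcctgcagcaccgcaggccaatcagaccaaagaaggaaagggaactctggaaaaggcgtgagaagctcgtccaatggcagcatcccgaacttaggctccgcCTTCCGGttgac
The motif ends 49 bases before the start in Atp5po, 46 in Atp5mc2, 36 in Cox7a2 and 5 in Ndufs8. In IRI, Atp5po and Cox7a2 were higher than control and Atp5mc2 and Ndufs8 lower. After quantile normalization all 4 were lower (-2.38, -3.24, -6.05 and -0.96), while after centring their directions were as in the deposited values. A motif match is a description of the letters in the window and not of binding.

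Between IRI and control, 33 of the 113 genes were higher, 20 lower and 60 not called at an adjusted p under 0.05 (limma, adjusted by the Benjamini-Hochberg method over all 65403 probe sets). That is 29.2% higher and 17.7% lower, against 8.90% and 9.42% of all genes taken by 1 probe set each, and 9.95% and 6.26% of all probe sets. Many of all genes are dim, while few members are. Keeping only probe sets above background on at least 3 arrays leaves fewer than 113 members. Among the members kept 39 were higher and 21 lower, beside 2213 and 1809 of 9870 genes. Against those genes the share lower was close to that of the members, and the gap in the share higher was smaller. Among the 73 subunits 26 rose and 10 fell, and complexes I, III, IV and V each held calls in both directions. The share of higher against lower calls turned with the scaling: after quantile normalization of the 9 arrays 6 members were higher and 64 lower (all genes 4.44% and 23.7%), and after each array was centred on its median 35 were higher and 14 lower (9.96% and 6.29%). After quantile normalization 6 of the 33 higher and all 20 lower calls remained, and after centring 32 of the 33 higher and 14 of the 20 lower calls. For 70 members (61.9%) every IRI array lay on one side of every control array, against 29.4% of all probe sets.

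By complex, the median log2 difference of the subunits was 0.14 for complex I, 0.28 for complex II, 0.67 for complex III, 0.10 for complex IV and 0.01 for complex V, beside -0.03 over all genes. All of these became negative after quantile normalization, at -0.61, -0.86, -0.77, -1.40 and -3.22 in the same order, beside -0.05 over all genes. Complex I had 13 subunits higher and 4 lower of 34, complex II 2 and 0 of 4, complex III 4 and 2 of 8, complex IV 3 and 1 of 13, and complex V 4 and 3 of 14, or 4 and 2 with the second probe set of Atp5mk described below. Of all genes 8.90% were higher and 9.42% lower. After quantile normalization the counts in the same order were 3 and 19, 1 and 2, 1 and 4, 0 and 9, and 0 and 11. The shares of all genes were then 4.44% and 23.7%. In the deposited values without probe sets at 19 or more, the counts over the members were 31 higher and 19 lower of 112. The only gene left out was Cox6a2, which moved the median of complex IV to 0.14.

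**Figure D1:**
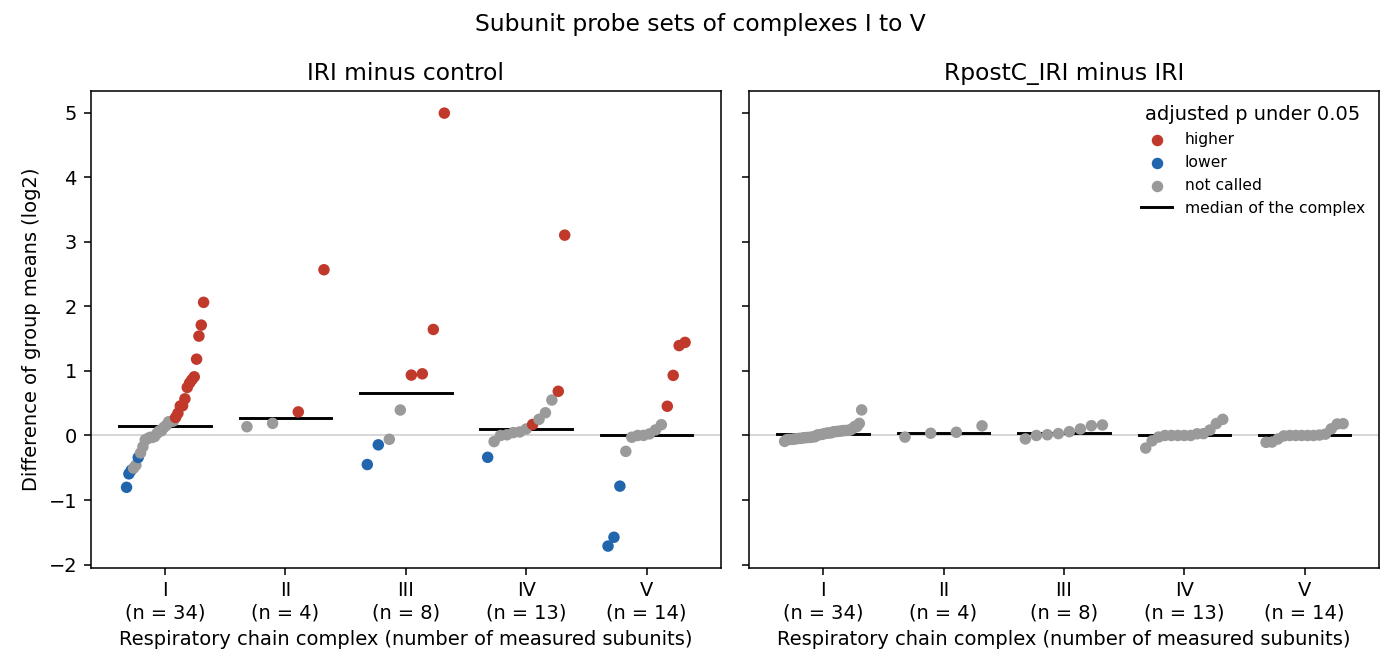
Each point is 1 of the 73 subunits, placed by its difference of group means (log2) within its complex, for IRI minus control (left) and RpostC_IRI minus IRI (right); bars are medians and colours the limma calls. Subunits of complexes I, III, IV and V lie on both sides of 0 at left, from -1.71 to 4.99, and none is called at right; after quantile normalization the 5 medians at left are below 0.

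Among the subunits, the largest rise was in complex III. Uqcr10, one of its small subunits, read 5.18, 5.42 and 5.57 on the control arrays, 9.95, 11.14 and 10.07 on the IRI arrays and 10.37, 10.92 and 9.95 on the RpostC_IRI arrays. All 6 IRI and RpostC_IRI arrays lay above the control arrays. The difference was 4.99 (SE 0.36, adjusted p = 6.23e-05) in IRI, and 4.42 after quantile normalization. A probe set named for both Uqcr10 and Uqcr10-ps1 was not among those used. It was at 4.61 to 4.87 and 4.81 to 4.86 (0.08, adjusted p = 0.548), not above background in either group. Uqcrb, which binds ubiquinone, read 10.60, 9.67 and 10.34 on control arrays and 11.84 on each of the 6 others. It rose by 1.64 (SE 0.21, adjusted p = 0.0014), but stood at -2.04 after quantile normalization. Uqcrh, the hinge protein beside cytochrome c1, was at 7.22 to 7.61 and 8.37 on all 3 IRI arrays (0.94, SE 0.14), and Uqcr11 at 6.51 to 6.78 and 7.54 to 7.74 (0.96, SE 0.15); neither was called after quantile normalization.

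The 2 subunits of complex III that fell carry its core and its redox centre. Uqcrc1, core protein 1, read 9.91, 9.92 and 9.92 on control arrays, 9.55, 9.55 and 9.30 on IRI arrays and 9.14, 9.55 and 9.55 on RpostC_IRI arrays. The fall was 0.45 (a difference of -0.45, SE 0.12, adjusted p = 0.0486), close to the threshold. Uqcrfs1, the Rieske iron-sulfur protein, fell by 0.14 (SE 0.033, adjusted p = 0.0246), from 6.10 to 6.17 down to 5.98 to 6.01. Both calls were lost after centring each array (-0.37 and -0.06). The call of Uqcrc1 was also lost when any array but the first RpostC_IRI array was left out, and that of Uqcrfs1 without the first or second control array or any IRI array. Uqcrc2, core protein 2, was at 14.03 on every array but the first IRI array (13.85).

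In complex II, a membrane anchor and the iron-sulfur subunit were called higher. Sdhc, which with Sdhd holds the complex in the membrane and forms the ubiquinone site, read 5.83, 5.95 and 5.66 on control arrays, 8.38 on each IRI array and 8.27, 8.41 and 8.38 on RpostC_IRI arrays. It rose by 2.57 (SE 0.076, adjusted p = 5.78e-07), and by 2.14 after quantile normalization. Sdhd, the other anchor, was at 8.74 to 9.16 and 9.12 to 9.16, with overlapping arrays (0.14, adjusted p = 0.570). Sdhb, the iron-sulfur subunit, rose by 0.37 (SE 0.074, adjusted p = 0.0143), with -0.26 after quantile normalization and no call without the second IRI array. Sdha, the flavoprotein that oxidises succinate, was at 10.89 to 11.06 and 11.16 (0.19, adjusted p = 0.240).

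The calls of complex I are given for its core and its accessory subunits, a grouping that was chosen after the values were seen and whose difference was not tested. None of the 6 nuclear core subunits measured (Ndufs1, Ndufs3, Ndufs7, Ndufs8, Ndufv1 and Ndufv2), which hold the flavin and the iron-sulfur clusters, was higher and 2 were lower, whereas 13 of the 28 accessory subunits were higher and 2 lower. Of all genes 8.90% were higher and 9.42% lower. After quantile normalization 0 and 6 of the core and 3 and 13 of the accessory subunits were higher and lower. The shares of all genes were then 4.44% and 23.7%. Ndufs7, which carries the last iron-sulfur cluster before ubiquinone, read 6.89, 6.92 and 6.56 on control arrays and 6.00, 6.00 and 5.97 on IRI arrays, a fall of 0.80 (a difference of -0.80, SE 0.098, adjusted p = 0.00113). Ndufs8, its neighbour with a pair of clusters, fell by 0.54 (SE 0.064, adjusted p = 0.000996), from 6.47 to 6.65 down to 6.04 to 6.05. Ndufv1, which binds NADH, was at 11.22 to 11.45 and 10.58 to 11.11 (a difference of -0.46, adjusted p = 0.110), and Ndufs1, the largest iron-sulfur subunit, at 13.15 to 13.29 and 13.10 to 13.29 (adjusted p = 0.907).

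The accessory subunits that rose lie mostly in the membrane arm. Of the 11 Ndufb subunits 7 were higher (63.6%, against 8.90% of all genes) and none lower, and both Ndufc subunits were higher. Among genes above background on at least 3 arrays, 2213 of 9870 were higher. Ndufc2 had the largest rise among the subunits of complex I: 8.12, 8.48 and 7.82 on control arrays, 9.88, 10.68 and 10.05 on IRI arrays and 10.01, 10.39 and 10.07 on RpostC_IRI arrays. The groups did not overlap, with a difference of 2.06 (SE 0.25, adjusted p = 0.00111). Ndufs5, an accessory subunit on the intermembrane side despite its name, was at 5.29 to 5.50 and 6.82 to 7.38 (1.71, SE 0.25), Ndufa5 of the matrix arm at 7.47 to 8.35 and 9.29 to 9.85 (1.54, SE 0.28), and Ndufb10 at 7.83 to 8.50 and 9.42 on all 3 IRI arrays (1.18, SE 0.19). After quantile normalization only Ndufs5 (1.47), Ndufb3 (0.53) and Ndufb6 (0.47) of the 13 stayed called as higher; Ndufc2 was at 0.82 (adjusted p = 0.068) and Ndufb5 turned to a lower call (-0.49).

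The accessory subunits that fell were Ndufab1, the mitochondrial acyl carrier protein, and Ndufa8, of the intermembrane side. Ndufab1 was at 8.80 to 9.17 on control arrays and read 8.44, 8.51 and 8.23 on IRI arrays and 8.51, 8.75 and 8.49 on RpostC_IRI arrays. Its difference was -0.59 (SE 0.12, adjusted p = 0.0154) in IRI and -0.41 in RpostC_IRI, where it was not called (adjusted p = 0.065). Ndufa8 fell by 0.34 (SE 0.073, adjusted p = 0.0179), a call that was lost after centring each array and without the first IRI array, while that of Ndufab1 was lost without IRI replicate 3. The 17 subunits not called had differences from -0.51 (Ndufa3) to 0.22 (Ndufb4 and Ndufb9).

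**Figure D2:**
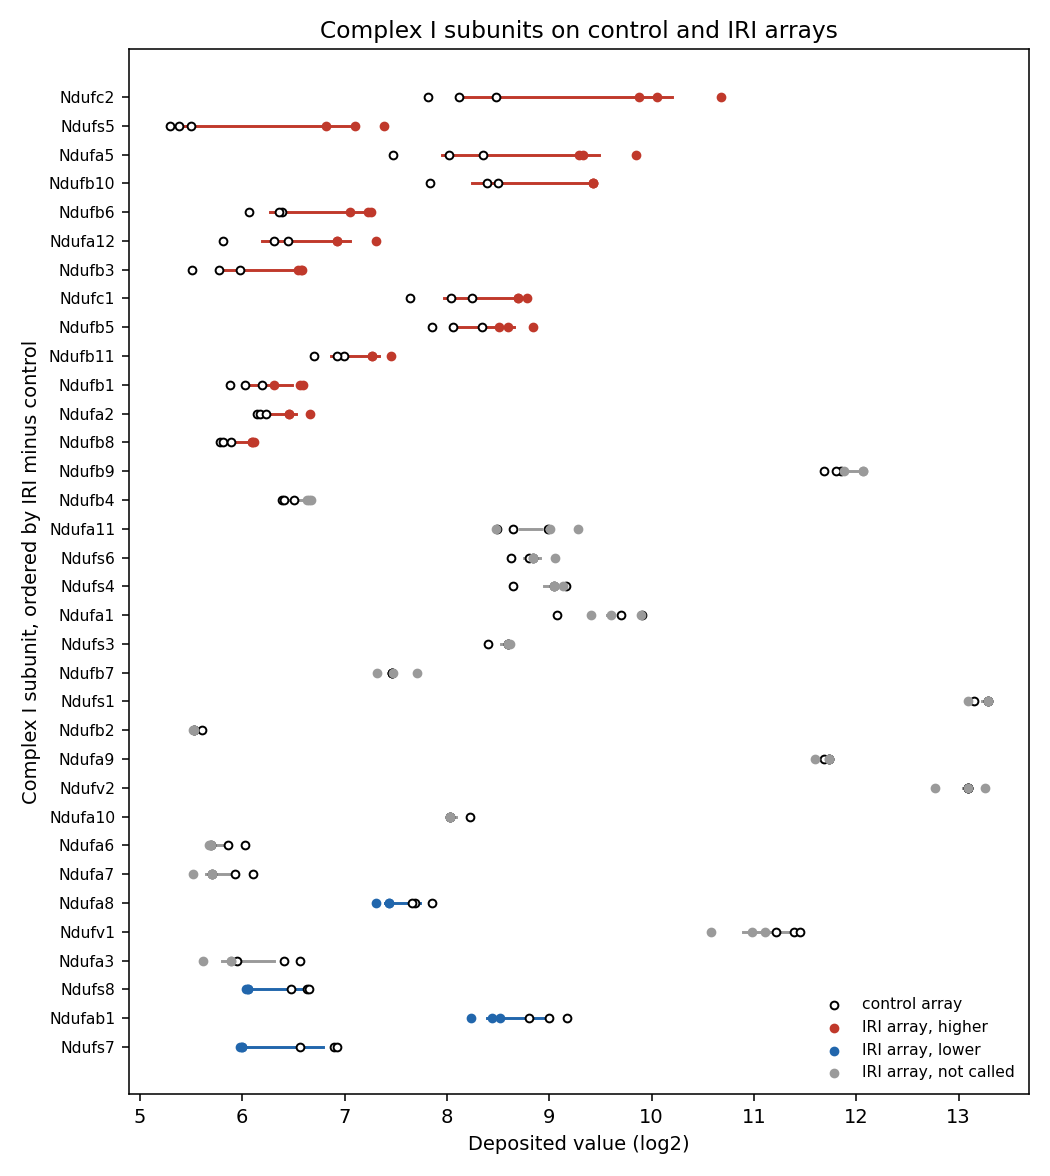
Deposited log2 values of the 34 complex I subunits on the 3 control arrays (open) and the 3 IRI arrays (filled, coloured by call), ordered by the difference of group means; lines join the means. Ndufc2 is at the top with 2.06 and Ndufs7 at the bottom with -0.80, and 13 rows are called higher and 4 lower; after quantile normalization 3 are called higher and 19 lower.

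In complex IV 3 of the 4 calls fell on widely expressed partners of subunits that have heart and muscle forms. Cox7a2 read 11.58, 10.92 and 10.65 on control arrays, 14.31, 14.08 and 14.08 on IRI arrays and 14.08, 14.86 and 14.08 on RpostC_IRI arrays. It was higher by 3.10 (SE 0.29, adjusted p = 0.000275), with no overlap, yet at -3.24 after quantile normalization. Cox6a1 was at 7.25 to 7.66 and 7.99 to 8.33 (0.68, SE 0.13, adjusted p = 0.0107; -0.08 after quantile normalization), and its muscle partner Cox6a2 stood at the top of the scale, 19.93, on all 9 arrays, where no change can be read. Cox8a fell, from 6.01 to 6.18 down to 5.75 to 5.76 (-0.34, SE 0.053, adjusted p = 0.00401; not called after centring), and its muscle partner Cox8b was at 12.41 to 12.65 and 12.90 on all 3 IRI arrays (0.35, adjusted p = 0.0779). Cox5b, a zinc-binding subunit, had 0.17 (adjusted p = 0.0389), a call lost when any array but the third control array was left out, and was lower after quantile normalization (-0.29).

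The other subunits of complex IV were not called. Cox5a was at 8.53 on 8 of the 9 arrays, Ndufa4 at 11.69 on the 6 IRI and RpostC_IRI arrays and at 11.53 to 11.69 on the control arrays, and Cox4i2, the oxygen-dependent partner of Cox4i1, at 4.97 to 5.08 and 5.08 (0.06, adjusted p = 0.441). Cox7b2 and Cox8c, known from testis, were not above background. Cox7a2l, which helps to build supercomplexes of complexes III and IV, read 8.15, 8.16 and 7.70 on control arrays and 8.27 on each other array (0.27, adjusted p = 0.193).

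The 3 mitochondrially encoded subunits of complex IV that were measured, COX1, COX2 and COX3, are not members, but they form its catalytic core. All 3 were at 19.93 on each IRI and RpostC_IRI array. On the control arrays COX1 read 19.84, 12.25 and 12.49, COX2 19.70, 11.99 and 12.52, and COX3 19.18, 11.86 and 11.24, so the first control array stood with the other groups and apart from its own. None was called (adjusted p = 0.129, 0.120 and 0.0917), and without the first control array their differences were at least 7.56, 7.68 and 8.38, with adjusted p = 5.58e-09, 1.87e-07 and 2.74e-07. Values at the top of the scale have no spread of their own, so only the remaining control arrays add spread to these last p-values. They do not measure the precision of the groups, and this array was singled out after its values were seen. After quantile normalization they were at -0.69, -0.65 and -0.42, none called. Of the 53 called members, 46 were also called without the first control array.

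Complex V moved in both directions within its membrane part. Subunit c, which forms the rotating ring, is encoded by 3 genes whose mature proteins are the same. Atp5mc1 read 9.10, 8.82 and 8.88 on control arrays, 7.18, 7.60 and 6.89 on IRI arrays and 7.22, 7.60 and 7.38 on RpostC_IRI arrays, a fall of 1.71 (SE 0.19, adjusted p = 0.000703). Atp5mc2 fell by 0.78 (SE 0.17, adjusted p = 0.0171), from 10.79 to 11.48 down to 10.24 to 10.41, a call lost without the first or second IRI array. Atp5mc3 was at 8.03 to 8.11 and 7.91 to 8.27 (adjusted p = 0.887). Atp5mk, a small membrane subunit, read 17.98 on all 3 control arrays, 16.60 on 2 IRI arrays with a mean of 16.40 over the 3, and 16.04, 16.60 and 16.40 on RpostC_IRI arrays (a difference of -1.58, SE 0.20, adjusted p = 0.00125). The ID of that probe set places it on chromosome 10, while RefSeq has the gene on chromosome 1. A second Atp5mk probe set, on chromosome 1, read 7.83 on all control and RpostC_IRI arrays and 7.71 to 7.83 on IRI arrays (-0.04, adjusted p = 0.556), so the fall is that of the chromosome 10 probe set and is not shown for the gene.

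Atp5mg, subunit g of the same membrane part, read 6.68, 6.31 and 7.36 on control arrays and 8.36, 8.16 and 8.16 on IRI arrays. It rose by 1.44 (SE 0.28, adjusted p = 0.0125), and was at 0.81 and not called after quantile normalization. Atp5po, which joins the stalk to the catalytic head, rose by 0.93 (SE 0.20, adjusted p = 0.0169), and Atp5f1a, the alpha subunit of the head, by 0.45 (SE 0.097, adjusted p = 0.0182), both turning to lower calls after quantile normalization (-2.38 and -3.87). The call of Atp5po was lost without the second or the third control array or the first or second IRI array, and that of Atp5f1a without the third control array or any IRI array. Atp5f1e, the epsilon subunit, was at 7.58 to 9.08 and 9.36 to 9.83 (1.39, SE 0.37, adjusted p = 0.0436), a call that was lost when any array but the first control array was left out. A second Atp5f1e probe set was at 6.89 to 7.53 and 7.60 to 8.05 and was not called in IRI (0.62, adjusted p = 0.20). In RpostC_IRI that second probe set was higher than control (1.16, adjusted p = 0.0274). Atp5f1b, the catalytic beta subunit, was at 18.63 on all 9 arrays. Atp5pd, of the stalk, was at 16.83 on 8 of the 9 arrays, and Cox6c of complex IV at the same value on 6. Atp5if1, which inhibits the enzyme when it runs in reverse, was at 8.77 to 8.92 and 8.61 to 8.77 (-0.13, adjusted p = 0.227).

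**Figure D3:**
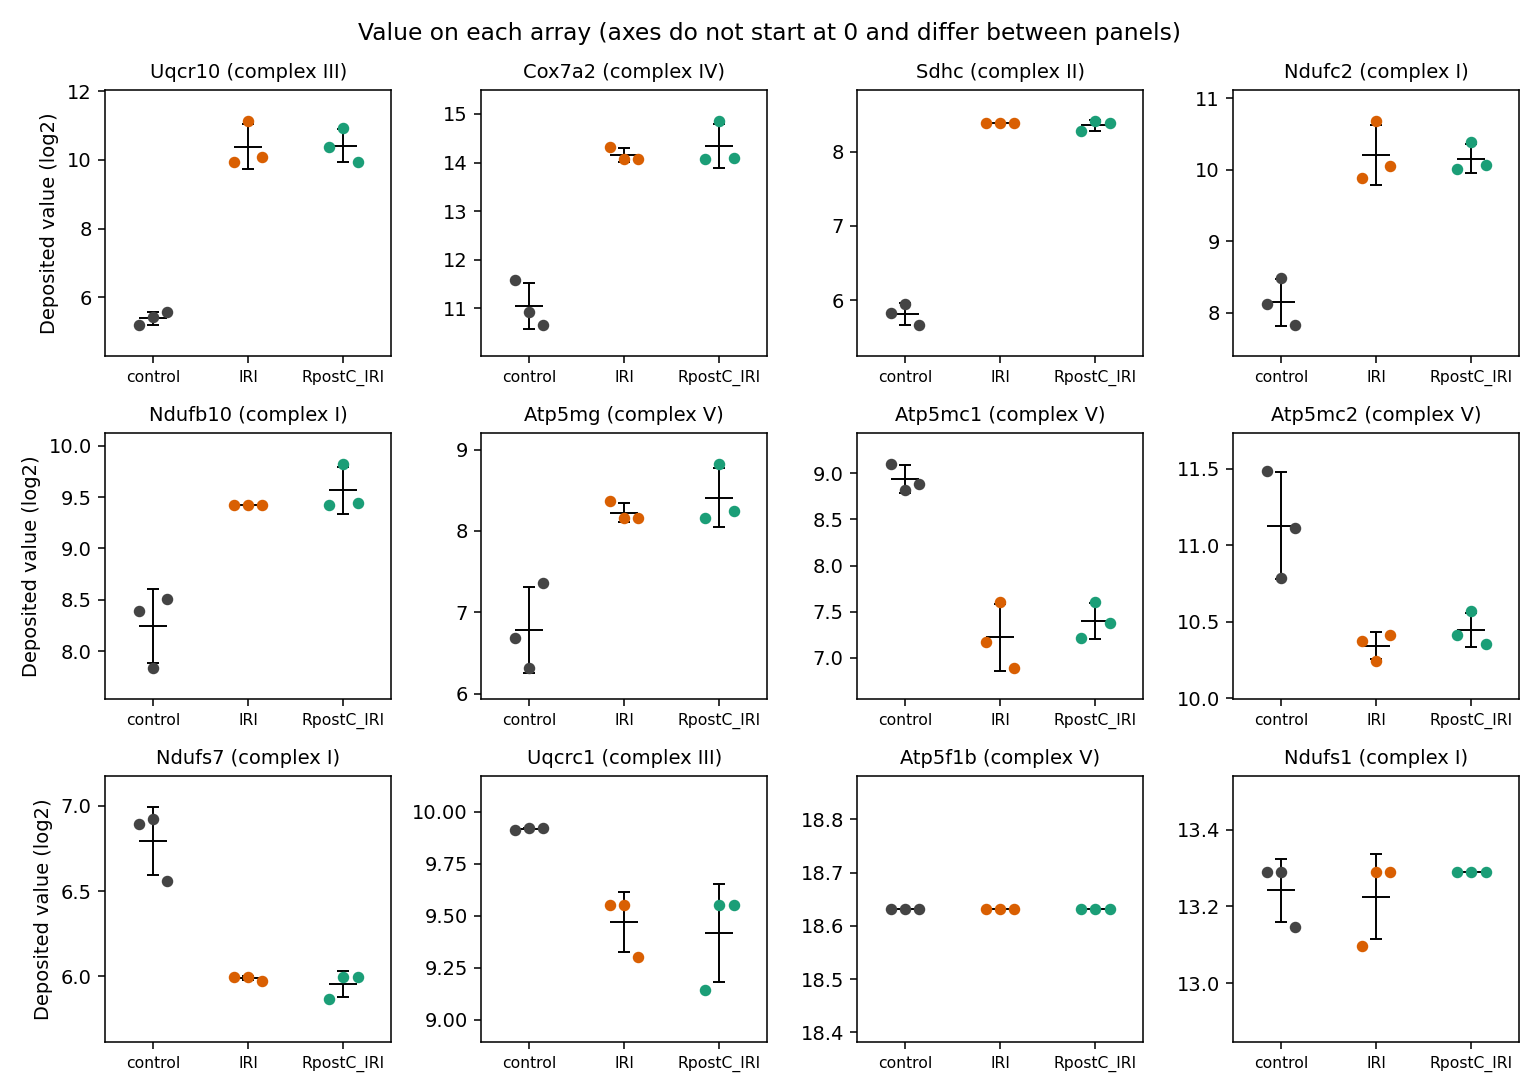
Deposited log2 value of 12 subunits on each array, 3 per group, with the group mean and SD (bars); axes differ between panels and do not start at 0. Uqcr10, Cox7a2, Sdhc, Ndufc2, Ndufb10 and Atp5mg are higher, and Atp5mc1, Atp5mc2, Ndufs7 and Uqcrc1 lower, on all 6 IRI and RpostC_IRI arrays than on the control arrays, while Atp5f1b is at 18.63 throughout; after quantile normalization Cox7a2 is lower than control, at -3.24, Ndufb10 is at -0.03, and Ndufc2 and Atp5mg are not called.

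The copies of subunit genes gave the largest differences of all the members. Among the 26 copies 5 were higher and 9 lower (19.2% and 34.6%, against 8.90% and 9.42% of all genes). Of the 9 copies of complex V genes 6 were lower (66.7%) and none higher. Atp5mc1l1, a protein-coding copy named after Atp5mc1, read 18.84, 18.80 and 18.24 on control arrays and 6.20, 6.71 and 6.33 on IRI arrays (-12.22, SE 0.21, adjusted p = 3.01e-08). Atp5mc1l2 fell by 4.46 (SE 0.18, adjusted p = 2.38e-06), from 11.23 to 11.45 down to 6.88 to 6.94. The pseudogene Atp5mc1-ps3 was at 5.88 to 6.30 on control arrays and not above background on the IRI arrays, a difference of at least 1.13 on the log2 scale. So every gene named after Atp5mc1 was lower, as was Atp5mc1 itself, under the deposited values and both other scalings.

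Copies did not always follow their parent gene. Uqcrb-ps1 read 14.51, 13.97 and 12.82 on control arrays and 17.80 on 5 of the 6 others (4.04 in IRI, SE 0.38, adjusted p = 0.000260; -2.33 after quantile normalization), Uqcrb itself rose by 1.64, and Uqcrb-ps2 and Uqcrbl1 had 0.00 and -0.02. Ndufab1-ps2 fell with Ndufab1, by 2.01 (SE 0.22). Cox7a2l2, which by its name belongs with Cox7a2l, was at 9.39 to 11.30 and 15.61 to 15.81 (5.63, SE 0.46, adjusted p = 0.000115; 1.47 and not called after quantile normalization). Ndufv3-ps1 rose by 2.24 (SE 0.15, adjusted p = 4.49e-05), and by 1.42 after quantile normalization. Copies and parents share sequence, and how far the RNA of one binds the probes of the other was not tested.

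Of the 14 assembly factors and related proteins 2 rose and 1 fell (14.3% and 7.14%), close to the 8.90% and 9.42% of all genes. Sdhaf2, which attaches the flavin to Sdha, rose by 0.32 (SE 0.068, adjusted p = 0.0176), Sdhaf3, which protects the iron-sulfur clusters of Sdhb, by 0.36 (adjusted p = 0.05, just under the threshold), and Ndufaf5, a hydroxylase of Ndufs7, fell by 0.56 (SE 0.14, adjusted p = 0.0326). The call of Sdhaf2 was lost without the second control or the second IRI array, that of Sdhaf3 when any array but the third control array was left out, and that of Ndufaf5 after centring and without any 1 of 7 arrays (all but the first and the third control arrays). Ndufaf1 and Ndufaf7 had 1 value on all 9 arrays. Of 29 measured of 34 other assembly genes for complexes III, IV and V, with cytochrome c, 8 were higher and 3 lower (27.6% and 10.3%), and 4 and 9 after quantile normalization. Cycs, cytochrome c itself, was at 13.10 to 13.50 and 15.93 to 15.99 (2.61, and -3.50 after quantile normalization), Lrpprc, which stabilises mitochondrial mRNA, at 7.21 to 7.40 and 8.55 to 8.73 (1.34, and 0.56), and Cox17, the copper chaperone, at 6.95 to 7.30 and 8.26 to 8.27 (1.11, and 0.41). Bcs1l, which inserts the Rieske protein into complex III, fell by 1.14, and Atpaf2, which helps to assemble the catalytic head of complex V, by 0.83. Of 8 of 9 other complex I assembly genes 1 was lower (Nubpl, an iron-sulfur carrier, -0.64) and none higher.

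Among 15 of 17 regulators of mitochondrial genes 1 was higher and 3 lower (6.67% and 20%, against 8.90% and 9.42% of all genes), and 1 and 7 after quantile normalization. Ppargc1a, the coactivator that drives them in heart muscle, read 12.26, 12.46 and 12.57 on control arrays, 9.39, 8.29 and 7.55 on IRI arrays and 7.79, 7.74 and 8.53 on RpostC_IRI arrays. It fell by 4.02 in IRI, with no overlap of arrays, and was also lower after quantile normalization (-9.24) and after centring (-3.94). Yy1 fell by 0.60 and Esrra by 0.26, the latter not called after centring, and Nrip1, a corepressor of these genes, rose by 0.85. Nrf1 and Gabpa were not called (0.09 and -0.32), but Gabpa was lower after quantile normalization (-0.965, adjusted p = 0.00293). In the tricarboxylic acid cycle, which feeds complexes I and II, 2 of 16 measured of 18 genes were higher and 5 lower, with Idh2 at 13.49 to 13.99 and 14.92 (1.25, and -4.35 after quantile normalization), and Idh3a at 11.43 to 11.84 and 10.18 to 10.33 (-1.35); all 16 were lower after quantile normalization.

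Markers of the cells of the heart moved in the same comparison, and their part in these results was not tested. Of 12 cardiomyocyte markers 5 were higher and none lower (41.7%, against 8.90% of all genes; 12 lower after quantile normalization), with summed log2 levels of 183 to 185 on control arrays and 192 to 194 on IRI arrays. Endothelial markers were higher in 5 of 7 (summed 55.9 to 58.3, and 69.6 to 76.4), fibroblast markers in 4 of 9 (67.0 to 71.6, and 76.8 to 77.6) and leukocyte markers in 3 of 10 (52.6 to 53.1, and 58.0 to 59.1), with the T cell marker Cd3e not above background on any array. Single genes weighed on these sums. Dcn had 6.46 and Postn -2.10 (not called) among fibroblast markers, and Pecam1 7.01 among endothelial markers. The median differences were 0.18 for cardiomyocyte, 1.14 for endothelial, 0.44 for fibroblast and 0.09 for leukocyte markers. After quantile normalization 2 endothelial markers were higher and 2 lower, 1 fibroblast marker higher and 4 lower, and 3 leukocyte markers higher and 1 lower. In RNA of whole tissue, fewer cells of a type and less RNA per cell cannot be told apart.

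**Figure D4:**
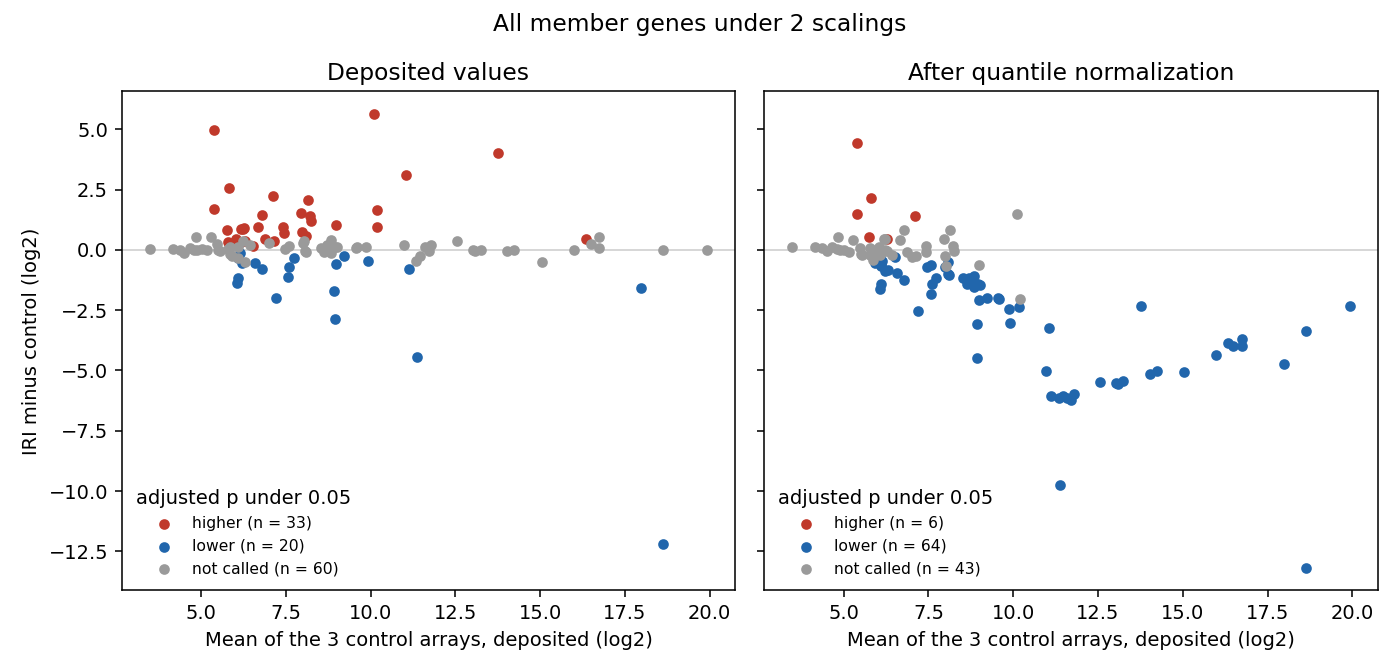
IRI minus control (log2) of the 113 members against the mean of the 3 control arrays, from the deposited values (left) and after quantile normalization of the 9 arrays (right), coloured by call. The 29 members with a control mean of 10 or more had 6 higher and 4 lower calls at left and 0 and 27 at right.

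The turn with scaling depended on level. Quantile normalization changed the difference by a median of -0.33 for the 59 members with a control mean under 8, by -1.41 for the 25 from 8 to 10, and by -5.10 for the 29 at 10 or more. Among the higher subunits, Uqcr10, Sdhc, Ndufs5, Ndufb3 and Ndufb6 were called under the deposited values and after quantile normalization, and all 5 also after centring. All 10 lower subunit calls remained after quantile normalization and 6 after centring (Atp5mc1, Atp5mc2, Ndufab1, Ndufs7, Ndufs8 and Atp5mk by its chromosome 10 probe set), whereas Cox8a, Ndufa8, Uqcrc1 and Uqcrfs1 were lost. No sign of the 53 called members changed when any 1 array was left out, but only 22 of 33 higher and 12 of 20 lower calls were made without each of the 9 arrays.

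RpostC_IRI was also compared with control, and the comparison shares its control arrays with that of IRI. Between RpostC_IRI and control 35 members were higher and 20 lower (31.0% and 17.7%, against 10.2% and 9.84% of all genes, and 10.7% and 6.95% of all probe sets), with 6 and 69 after quantile normalization and 41 and 11 after centring. Among members above background on at least 3 arrays, 40 were higher and 22 lower, beside 2487 and 1697 of 9870 genes. The medians of complexes I to V were 0.17, 0.35, 0.79, 0.10 and 0.01, and -0.68, -0.90, -0.81, -1.52 and -3.22 after quantile normalization. The difference from control was 5.02 for Uqcr10, 3.29 for Cox7a2, 2.54 for Sdhc, 2.01 for Ndufc2 and -1.54 for Atp5mc1, beside 4.99, 3.10, 2.57, 2.06 and -1.71 in IRI; that of Cox7a2 turned after quantile normalization in IRI (-3.24).

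Whether postconditioning moved these genes was read from RpostC_IRI minus IRI directly. No member was called by limma (0 of 113, as 0 of all 65403 probe sets) or by the methods' t-test (0 before and 0 after Benjamini-Hochberg adjustment, at a threshold of 0.05, with 14 members left without a p because their values repeat), and none reached an unadjusted p under 0.05 in limma, against 1.91% of all genes higher and 0.771% lower at that level. The differences ran from -0.27 (Atp5mgl4, a copy) to 0.40 (Ndufa11), with a median of 0.02. Cox6a1 had the smallest p, with 8.33, 7.99 and 8.05 on IRI arrays and 8.32, 8.48 and 8.32 on RpostC_IRI arrays (0.25, SE 0.13, unadjusted p = 0.0967). Ndufa11, an accessory subunit of complex I, was at 9.01, 9.28 and 8.48 against 8.83, 9.34 and 9.79 (0.40, SE 0.30, unadjusted p = 0.223). IRI and RpostC_IRI arrays stood fully apart for 1 member, against 5.82% of all probe sets. It was Uqcrh, whose lowest RpostC_IRI value equalled its IRI values to 2 decimals (8.37). For Uqcr10, Sdhc and Atp5mc1, the values given above show IRI and RpostC_IRI arrays that overlap and stand apart from control.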

How the data were processed

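RNA of the left ventricle was measured on 9 arrays (control, IRI and RpostC_IRI, 3 each), with groups and replicate numbers as the sample titles give them. According to the methods, RNA was isolated with TRIzol, cleaned on RNeasy columns and labelled with Affymetrix whole-transcript kits, and the authors summarised the scans by robust multichip analysis. The deposited values are log2 signals per probe set. The paper names a rat array and the series text a human one, and the annotation used here is rat. No source names the software version, or says whether all arrays were normalised together.

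Of 65526 probe sets, 123 controls were left out and 65403 were tested as deposited by moderated linear models (lmFit, eBayes) that held all 3 groups, in limma 3.58.1 under R 4.3.3, with Benjamini-Hochberg adjustment over all of them and 0.05 as threshold. In simulated arrays of IRI against control, on 65403 probe sets, 58% of 100 probe sets shifted by 1 on the log2 scale were recovered. Of 100 shifted by 2, 92% were recovered, and 11 calls were false. How far these rates hold for the deposited arrays, with their repeated values and the top of their scale, was not tested. Symbols came from the platform annotation, and 112 of the 113 genes matched RefSeq (Atp5d is an older symbol). Members and lists were chosen with earlier results of these data known. Genes were named by a fixed rule: the 4 of smallest p of each complex in each direction, core subunits, tissue-specific pairs, subunit c genes, the 4 copies of smallest p, the 4 of smallest p each way between RpostC_IRI and IRI, and up to 3 genes of each other list; other members named were chosen after their values were seen. Alternatives were quantile normalization, centring on the median, no probe sets at 19 or more, a filter on dim probe sets (above the receptor percentile on at least 3 arrays), the mean of a gene's probe sets, 2 groups fitted alone, trend and robust eBayes, array weights, the methods' t-test, the replicate block and each array left out. The arrays give no read depth, and 3 per group limit the precision. Python 3.11.15, pandas 2.3.3, numpy 2.4.6 and matplotlib 3.10.9 were used for tables and figures.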

Additional observations from a re-analysis of the deposited data

How the results depend on the processing

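Quantile normalization changed the most. Between IRI and control it gave 6 members higher and 64 lower, in place of 33 and 20, and between RpostC_IRI and control 6 and 69, in place of 35 and 20. The medians of complexes I to V in IRI minus control went to -0.61, -0.86, -0.77, -1.40 and -3.22. It reversed Sdhb (-0.26), Sdha (-5.02), Sdhd (-1.46), Uqcrb (-2.04), Cox7a2 (-3.24), Cox6a1 (-0.0848), Cox5b (-0.29), Cox8b (-5.48), Atp5po (-2.38), Atp5f1a (-3.87), Cox7a2l (-0.70) and Ndufa4 (-6.14) in IRI minus control, and Cox6b1-ps1 (-0.0894) in RpostC_IRI minus IRI. Centring each array on its median turned Uqcrc2 (0.0244), Ndufs1 (0.0665) and Atp5mc3 (0.0563), none of them called, and left 11 members lower in RpostC_IRI. The cause was not tested.

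The methods' t-test gave 40 higher and 20 lower in IRI, and 37 and 23 in RpostC_IRI, at an unadjusted p under 0.05, and 19 and 11, and 17 and 10, after Benjamini-Hochberg adjustment. Fitted alone with control, RpostC_IRI had 12 lower. Known subunits alone gave 10 lower in IRI and 9 in RpostC_IRI. With each array left out in turn, 22 to 34 members were higher and 14 to 22 lower in IRI, 25 to 37 and 13 to 19 in RpostC_IRI (13 without RpostC_IRI replicate 2), and 0 in RpostC_IRI minus IRI; the medians of complexes I to V ranged from 0.09 to 0.19, 0.26 to 0.28, 0.60 to 0.73, 0.08 to 0.15, and 0.00 to 0.05. Ndufs1 turned to 0.0067, 0.0067 and 0.0471 without control replicate 1 or 2 or IRI replicate 1, and ranged from -0.064 to 0.0471. Atp5mc3 turned to 0.0197 and 0.0389 without IRI replicate 2 or 3 (range -0.14 to 0.0389), and in RpostC_IRI minus IRI to 0.011 without IRI replicate 1 (range -0.168 to 0.011).

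Same-numbered arrays correlated at -0.30 to 0.04 in their deviations from the group means, and differently numbered ones at -0.35 to 0.40. With 3 arrays per group and values repeated between arrays, this does not settle whether the numbers pair them. With the replicate number as a block, 27 members were higher and 16 lower in IRI, 29 and 15 in RpostC_IRI, and 0 in RpostC_IRI minus IRI. For the 55 differences of single genes named by the rule, 923 values under the alternatives kept direction and side of the threshold, 79 lost and 16 gained the call, and 22 reversed. In an alternative added after the data were seen, with only probe sets whose ID names the gene's RefSeq chromosome (a second probe set for Atp5mk, none for Cox6b1-ps1), 33 of 112 members were higher and 18 lower in IRI. Values at the top of the scale (19.93) and values repeated between arrays limit what can be read of size and spread.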
